A study of Sus scrofa with 15 samples.

Results

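Parturition in the sow was crossed between the biopsies taken 2 days before it and those taken 1 day after it, and the mammary transcriptomes of these time points are compared here. All libraries that the sample labels place at 2 d prepartum and at 1 d postpartum were used, which are 6 of the 15 libraries of the series, 3 per time point. Each time point holds the same 3 sows, second-parity crosses of Danish Landrace and Yorkshire, which the study picked for their high colostrum yield. The sows received different diets from late gestation on, which combined alfalfa meal with trioctanoate, sugar beet pulp with palm fatty acid distillate, or alfalfa with soybean oil. Which sow received which diet was not given in the sources used here, and the animal and its diet are thus inseparable. No group was left untreated, since all sows were biopsied under anaesthesia at every time point. Each sow was also given the drug Banamine right after a biopsy and again on the days that followed. Before the biopsy in lactation the piglets were taken away when milk let-down began. The 2 d prepartum libraries were therefore from pregnant glands and the 1 d postpartum libraries from suckled glands. Birth, suckling, repeated biopsy, the drugs given with it and the passing of 3 days cannot be told apart.

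In late pregnancy the alveolar epithelium of the gland gains its secretory machinery and makes colostrum, and around birth the fall of progesterone, with prolactin and glucocorticoids present, brings copious secretion. Milk fat, lactose and casein are made by the luminal cells, and myoepithelial cells around the alveoli contract in answer to oxytocin when the young suckle. The gland also secretes proteins of innate defence, such as lactoferrin and complement, and in other species it is known to carry an acute phase response around birth. The sow farrows with colostrum already formed, which is why the days on either side of birth are of interest.

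The values used here are raw counts of reads per gene, and the text gives them as CPM, the counts of a gene relative to the total of its library after TMM scaling, which sets the bulk of genes level between libraries. Total counts lay between 13459054 and 19952918 at 2 d prepartum and between 10782343 and 15744454 at 1 d postpartum. The library of sow 1 at 1 d postpartum stood apart, with the lowest total, a TMM factor of 0.545 against 0.829 to 1.01 in the other 5, and 53.8% of its counts on its 10 highest genes. The other 2 libraries of that time point had 30.5% and 33.6% there, and those of 2 d prepartum 25.1% to 35.7%. The difference in this share between the time points was 8.76 percentage points. It was not beyond the spread of the libraries (exact permutation test, two-sided, not paired by sow, p = 0.5). With 3 against 3 this p cannot go below 0.1. Within sows the share moved by 23.0, -5.21 and 8.49 percentage points. Results are therefore also given without the library of sow 1 at 1 d postpartum.

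Of 13503 genes tested, 3152 were differentially expressed between 1 d postpartum and 2 d prepartum at an adjusted p of at most 0.05, which is 23.3% and the background for all counts below (12.5% higher and 10.9% lower). The 1686 upregulated genes had a median log2 fold change of 0.90 and the 1466 downregulated genes one of -0.73. At least a doubling was reached by 726 of the former and at least a halving by 461 of the latter. The change exceeded 10-fold in 59 upregulated and 28 downregulated genes. In 2982 of the differentially expressed genes (DEG) all 3 sows moved the same way, and the share of all genes that did so was not counted. In 2515 the libraries of the time points did not overlap. Among all genes tested 3670 did not overlap (27.2%), these 2515 included. Both counts come from the values that gave the calls and are not separate support. With total counts in place of TMM, the split was 598 higher and 2448 lower, since the median of all genes then shifted from 0.02 to -0.23 on the log2 scale, so that directions are relative to the bulk of genes. Without the library of sow 1 at 1 d postpartum 4645 genes were called, without that of sow 3 at 2 d prepartum 1833, and with the 6 libraries alone in the fit 321. Among the genes tested, 121 passed the filter on low counts only through the postpartum libraries, 54 of which were upregulated, so that a call in these could point only upward. A set of 1473 genes, 738 higher and 735 lower, was called in the full fit and in each of the 6 fits that lacked a library.

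Genes of innate defence and the acute phase were upregulated, receptors, transcription factors and secreted proteins among them, and most of all in sows 2 and 3. Of 29 tested members of the list for pathogen sensing and acute phase, 19 were upregulated and 0 downregulated, with a median log2 fold change of 1.00. Without the library of sow 1 at 1 d postpartum the counts were 20 and 1. They were 14 and 0 without the postpartum library of sow 3, and 13 and 1 with total counts in place of TMM. With the 6 libraries alone in the fit they were 5 and 0. In bulk tissue, fewer cells of a type and less RNA per cell cannot be told apart, here or in any list that follows. Neither can more cells and more RNA per cell.

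CD14, the co-receptor that hands bacterial lipopolysaccharide to Toll-like receptor 4 (chromosome 2, 148291451 to 148293622 in the build Sscrofa10.2), stood at 4.98, 6.17 and 6.87 CPM in sows 1, 2 and 3 at 2 d prepartum. At 1 d postpartum it stood at 23.3, 474 and 377 CPM. All postpartum values lay above all prepartum values, with that of sow 1 far below those of the others, and the log2 fold change was 5.34 ± 0.70 (SE, adjusted p = 0.000387). LY96, which forms the lipopolysaccharide receptor complex with Toll-like receptor 4, went from 4.69, 5.69 and 4.65 CPM to 5.79, 46.6 and 37.7 CPM (2.51 ± 0.47, adjusted p = 0.00283). The receptor gene TLR4 itself rose by 0.96 ± 0.20 (adjusted p = 0.00567).

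LCN2, or lipocalin 2, which binds bacterial siderophores (chromosome 1, 302600679 to 302605199), was nearly level among the sows before birth, at 13.8, 13.8 and 13.6 CPM. After birth sow 1 had 16.5 CPM while sows 2 and 3 had 1705 and 1205 CPM. The log2 fold change of 5.87 ± 1.04 (adjusted p = 0.00210) thus averages a sow that hardly moved with a pair that moved by far more, and it was 6.65 without the postpartum library of sow 1 and 5.002 without that of sow 2. Complement C3 showed the same split, from 87.4, 62.2 and 63.8 CPM to 250, 3063 and 2848 CPM (4.87 ± 0.77, adjusted p = 0.00106). Its log2 fold change was 3.94 without the postpartum library of sow 2.

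The transcription factor genes CEBPD and NFIL3 rose in every sow. CEBPD, a mediator of the acute phase response, stood at 33.1, 32.9 and 34.2 CPM before birth and at 136, 430 and 343 CPM after it (3.10 ± 0.27, adjusted p = 4.04e-05). NFIL3 went from 11.6, 14.8 and 8.86 CPM to 32.3, 38.3 and 36.1 CPM (1.60 ± 0.15, adjusted p = 5.82e-05), with little difference among the sows after birth. The neutrophil protein gene S100A9 reached 2.55, 10.1 and 5.63 CPM from at most 0.363 CPM, and it passed the filter on low counts only through the postpartum libraries, so that its call had to point upward.

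Further members, named after their values were seen, showed the same sow pattern. LBP, the lipopolysaccharide binding protein of the acute phase, had already risen before birth (log2 fold change 4.45 from 14 d to 2 d prepartum) and went on from 202, 360 and 103 CPM to 1119, 6586 and 5514 CPM. SOD2, the mitochondrial superoxide dismutase, went from 155, 132 and 173 CPM to 211, 3163 and 3495 CPM. The chemokine gene CXCL2 was unlike these, because sow 1 was the highest of the sows after birth, with 134 CPM against 79.7 and 78.7 CPM, from 4.69, 4.24 and 6.27 CPM (4.24 ± 0.24, adjusted p = 2.36e-06). CXCL2 and the metallothionein gene MT1X have close relatives in the genome, and how reads were shared among such copies was not tested.

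MT1X, a metal-binding metallothionein, had the largest increase of a named gene, from 4.46, 0.847 and 4.36 CPM to 20.3, 586 and 264 CPM. Its log2 fold change of 6.66 ± 1.12 (adjusted p = 0.00158) was 5.01 without the postpartum library of sow 2. SPP1, or osteopontin, a secreted phosphoprotein found in milk, rose in all sows alike, from 8.04, 13.7 and 13.6 CPM to 259, 458 and 278 CPM (4.85 ± 0.30, adjusted p = 3.35e-06). SERPINA11, a member of the serpin family of protease inhibitors, rose from at most 0.484 CPM to 2.38, 18.8 and 25.2 CPM and passed the filter only through the postpartum libraries. The largest increase of any gene under the naming rule was that of ENSSSCG00000013370 on chromosome 2 (44036240 to 44039539), for which no name was found in the sources used. It went from 65.2, 18.8 and 16.02 CPM to 2138, 5697 and 4336 CPM (7.36 ± 0.67, adjusted p = 4.84e-05), after a rise of 4.47 from 14 d to 2 d prepartum.

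**Figure D1:**
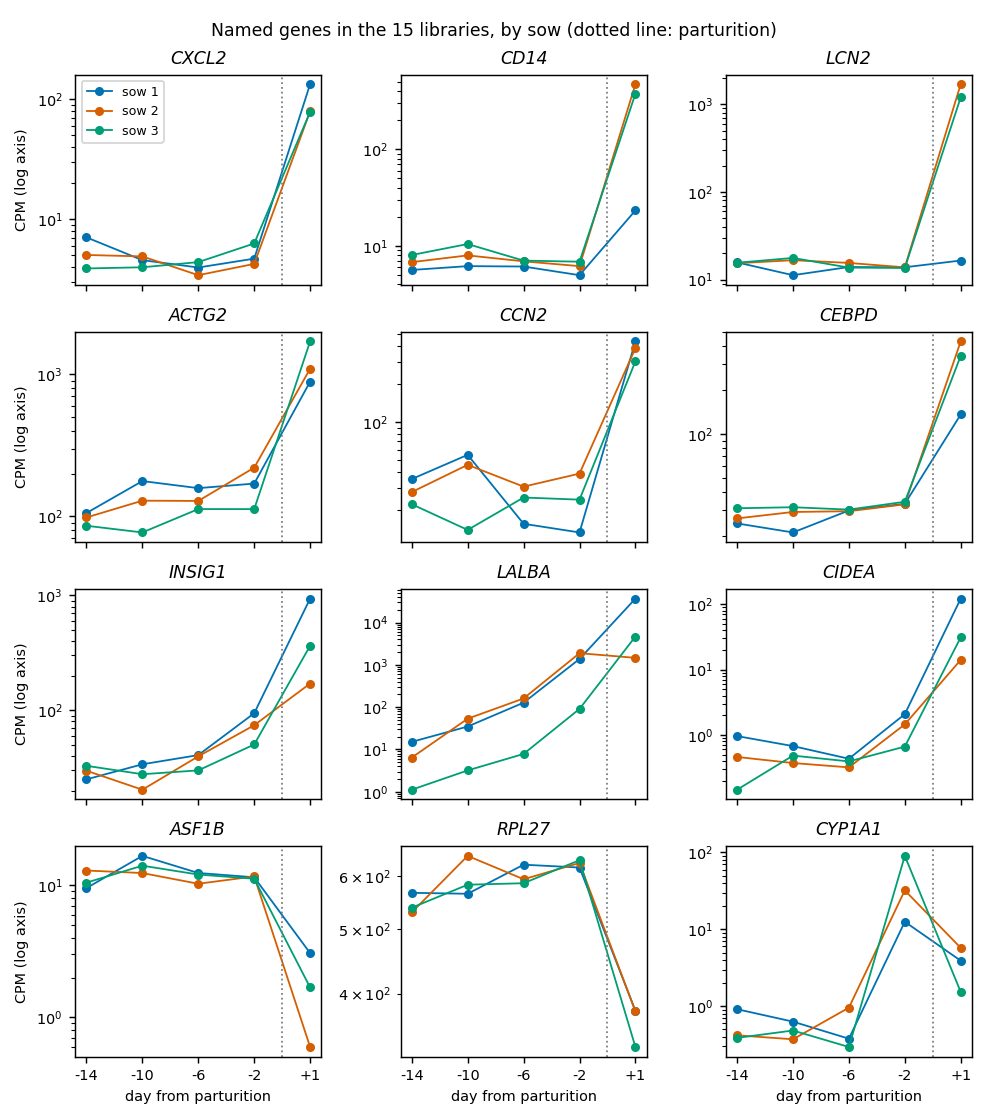
CPM (log axis) of 12 genes against the day from parturition, with a line for each of the 3 sows and a dotted line at parturition. CXCL2, CCN2 and ACTG2 rose in all sows after birth, LCN2 rose from 13.8 and 13.6 to 1705 and 1205 CPM in sows 2 and 3 but stood at 16.5 CPM in sow 1, LALBA was highest in sow 1, ASF1B and RPL27 fell in all sows, and CYP1A1 peaked at 2 d prepartum.

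Part of the genes of milk protein, fat and cholesterol synthesis were upregulated over the same step, and here the medians of the lists moved most in sow 1 and little or downward in sow 2. Of 22 genes of cholesterol synthesis 12 were upregulated and 0 downregulated, with a median log2 fold change of 0.85. Of 36 genes of milk fat synthesis and the lipid droplet 12 were upregulated and 1 downregulated (median 0.42), and of 64 genes of the secretory pathway 14 and 1 (median 0.34). Without the postpartum library of sow 1 these counts were 8 and 1, 7 and 3, and 13 and 3, and the medians 0.40, 0.17 and 0.04. Other libraries also set the counts, since without the prepartum library of sow 1 the genes called higher were 5, 8 and 7, without that of sow 3 they were 6, 5 and 4, and without the postpartum library of sow 3 they were 7, 6 and 16. The median within-sow change of the cholesterol list was 1.46 in sow 1, -0.08 in sow 2 and 1.15 in sow 3 on the log2 scale, and that of the secretory list 0.67, 0.003 and 0.27. With total counts in place of TMM the called genes were 8 higher and 1 lower, 7 and 2, and 5 and 2. With the 6 libraries alone in the fit they were 2 and 0, 2 and 0, and 1 and 0.

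Among milk proteins, a list added once gene names were at hand, 4 of 8 tested genes were upregulated and 0 downregulated, and 7 and 0 without the postpartum library of sow 2. The counts were 2 and 0 with limma-voom and sows as random effects, and also with no block for the sow. With the 6 libraries alone in the fit 0 were called. In sow 2 only 3 of the 8 genes moved upward. LALBA, alpha-lactalbumin, the regulatory part of lactose synthase (chromosome 5, 82539971 to 82542256), stood at 1380, 1892 and 90.9 CPM before birth and at 36970, 1469 and 4694 CPM after it. The time points overlapped and sow 2 fell, so that the log2 fold change of 4.29 ± 0.93 (adjusted p = 0.00638) came from sows 1 and 3. It was 5.12 without the postpartum library of sow 2 and 3.29 without that of sow 3. LPO, lactoperoxidase, an antibacterial enzyme of milk, rose from 10.24, 6.84 and 0.517 CPM to 263, 23.9 and 29.8 CPM (3.87 ± 0.56, adjusted p = 0.000697), and by 2.96 without the postpartum library of sow 1. LTF, lactoferrin, an iron-binding protein of milk, rose from 1537, 2070 and 1881 CPM to 4001, 7134 and 2389 CPM (1.26 ± 0.29, adjusted p = 0.00864).

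CSN2, or beta-casein, named after its values were seen, was not called across birth. It stood at 68070, 97480 and 33130 CPM before birth and at 248100, 20610 and 58110 CPM after it, up in sows 1 and 3 and down in sow 2 (0.69 ± 0.63, adjusted p = 0.474). Its large step lay before birth, with a log2 fold change of 4.97 from 14 d to 2 d prepartum. The summed level of the 8 milk protein genes, which was 141200, 207100 and 90170 CPM before birth, was 520300, 102700 and 147800 CPM after it. After birth LALBA, CSN2 and LPO were thus highest in the sow in which LCN2, C3 and SOD2 were lowest, and whether this belongs to the animal, its diet or the library cannot be told apart. Not all milk and defence genes split this way, since LTF was highest in sow 2 (7134 CPM) and CXCL2 in sow 1 (134 CPM).

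INSIG1, which holds back the activation of sterol regulatory element binding proteins, rose from 94.3, 74.2 and 50.4 CPM to 937, 171 and 365 CPM (2.61 ± 0.41, adjusted p = 0.00102), and by 1.94 without the postpartum library of sow 1. SQLE, squalene epoxidase, rose from 11.2, 7.99 and 6.13 CPM to 61.1, 19.5 and 40.4 CPM (2.20 ± 0.33, adjusted p = 0.000840), and HSD17B7, an enzyme of cholesterol and steroid synthesis, by 1.98 ± 0.26 (adjusted p = 0.000403). All sows moved upward in these genes.

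Lipid droplet genes had the largest changes of the fat list. CIDEA, a lipid droplet protein that acts in milk fat secretion in the mouse, rose from 2.08, 1.45 and 0.664 CPM to 122, 14.1 and 31.1 CPM (4.99 ± 0.46, adjusted p = 5.20e-05), and by 4.30 without the postpartum library of sow 1. PLIN5, a perilipin that coats lipid droplets, rose from 0.174, 0.182 and 0.295 CPM to 2.72, 8.13 and 5.63 CPM (4.64 ± 0.45, adjusted p = 6.85e-05), where sow 2 was the highest, and it too passed the filter only through the postpartum libraries. FADS2, the delta-6 desaturase, rose by 1.17 ± 0.17 (adjusted p = 0.000673). GPAM, the mitochondrial acyltransferase that starts glycerolipid synthesis, was the downregulated member, from 924, 1039 and 984 CPM to 901, 517 and 582 CPM (-0.57 ± 0.17, adjusted p = 0.0319). Its call was lost without the postpartum library of sow 2 (-0.36) or sow 3 (-0.53), and without the prepartum library of sow 2 (-0.56) or sow 3 (-0.49).

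In the secretory pathway the upregulated genes with the smallest p were chaperones of the endoplasmic reticulum and a transcription factor. HSPA5, the chaperone BiP, rose from 515, 488 and 333 CPM to 1401, 861 and 739 CPM (1.17 ± 0.24, adjusted p = 0.00424), and its co-chaperone DNAJC3 by 1.14 ± 0.22 (adjusted p = 0.00366). CREB3, a transcription factor anchored in that membrane, rose by 0.51 ± 0.08 (adjusted p = 0.000909), from 69.4, 63.1 and 58.5 CPM to 92.6, 85.99 and 92.4 CPM. EMC9, a subunit of the membrane protein insertion complex, was the downregulated member (-0.50 ± 0.11, adjusted p = 0.00851). From 14 d to 2 d prepartum 23 of the 64 genes had already been called higher, against 9.41% of all genes called in either direction over those days.

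**Figure D2:**
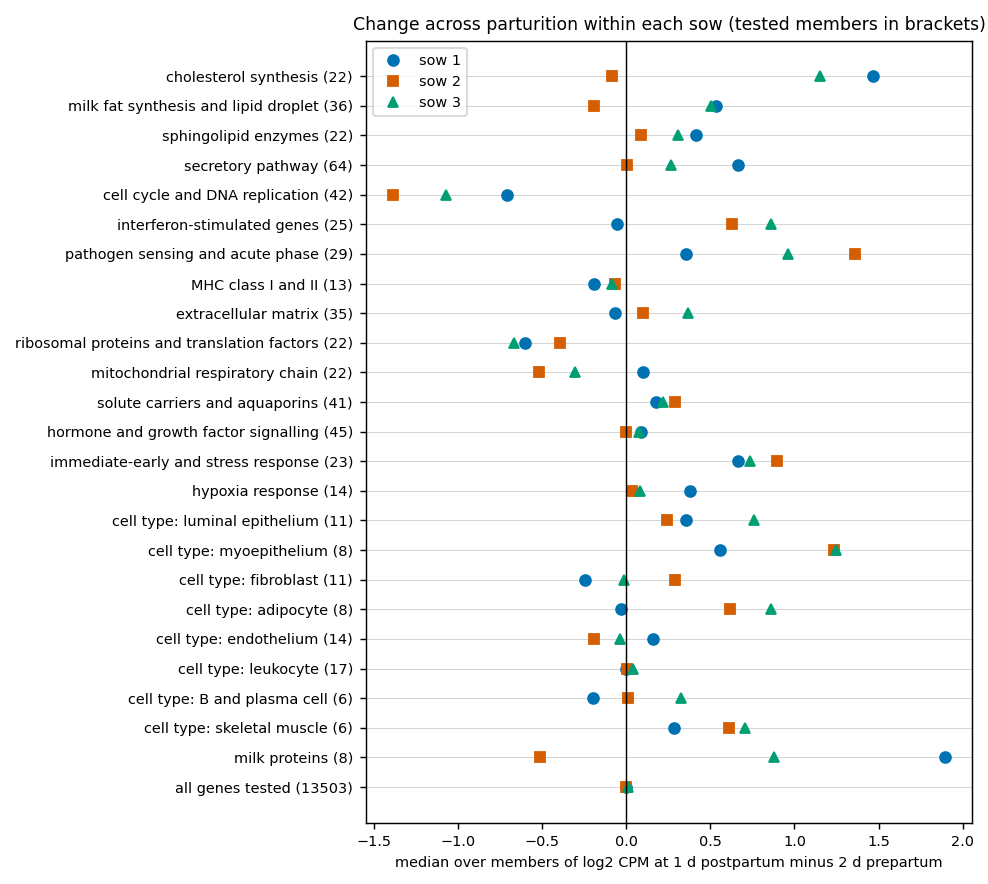
Median over the tested members of each gene list of log2 CPM at 1 d postpartum minus 2 d prepartum, with a symbol for each of the 3 sows. Milk protein, cholesterol and secretory genes moved most in sow 1 (1.89, 1.46 and 0.67) and least or downward in sow 2 (-0.51, -0.08 and 0.003), acute phase and interferon-stimulated genes moved least in sow 1 (0.35 and -0.05), and cell cycle and ribosomal genes fell in all sows.

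Contractile genes of the myoepithelium rose in all sows. Of 8 tested markers of that cell type 6 were upregulated and 0 downregulated, with and without the postpartum library of sow 1, and the median log2 fold change was 1.04. With total counts in place of TMM 4 were upregulated, and with the 6 libraries alone in the fit 2. Their summed level went from 1991, 1988 and 1799 CPM to 3526, 4932 and 5872 CPM. ACTG2, the gamma actin of smooth muscle (chromosome 3, 72251856 to 72310387), rose from 170, 220 and 112 CPM to 889, 1096 and 1710 CPM (2.94 ± 0.33, adjusted p = 0.000133). TAGLN, or transgelin, rose from 345, 353 and 338 CPM to 629, 1036 and 1479 CPM (1.57 ± 0.21, adjusted p = 0.000455), and CNN1, calponin, by 1.51 ± 0.17 (adjusted p = 0.000133). OXTR, the oxytocin receptor, named after its values were seen, went from 7.35, 8.72 and 11.3 CPM to 12.4, 26.8 and 27.3 CPM (1.25 ± 0.24, adjusted p = 0.00327). The marker TP63, a nuclear factor of basal cells, was not called (-0.49, adjusted p = 0.22), and KRT5 and KRT14 were not matched to an ID in the sources used. Since the contractile genes are shared by myoepithelium and the smooth muscle of vessels, these sources were not told apart.

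The actin genes ACTC1 and ACTA1, which stand on the skeletal muscle list and are alike in sequence to ACTG2, also rose, by 3.11 ± 0.37 (adjusted p = 0.000221) and 2.77 ± 0.48 (adjusted p = 0.00187), and by 2.46 and 1.97 without the postpartum library of sow 3. They reached 35.4, 49.0 and 84.3 CPM and 8.0, 10.9 and 23.1 CPM. Of the 6 tested members of that list these were the only genes called, the muscle markers TNNI3 and TMOD4 not being called, and the summed level of the list went from between 35.1 and 38.0 CPM to between 67.8 and 131.7 CPM. The share of reads that alike actin transcripts take from each other was not tested.

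Immediate-early and stress genes rose in all sows, 12 of 23 upregulated and 0 downregulated (median 0.66), or 13 and 0 without the postpartum library of sow 1. The counts were 8 and 0 with total counts in place of TMM, and 6 and 0 with the 6 libraries alone in the fit. CCN2, a matricellular growth factor that answers to stretch and serum (chromosome 1, 35133813 to 35137139), rose from 13.3, 38.9 and 24.2 CPM to 434, 384 and 302 CPM (3.89 ± 0.45, adjusted p = 0.000174). ATF3, a stress-induced transcription factor, rose from 20.4, 21.4 and 15.9 CPM to 72.3, 39.97 and 43.9 CPM (1.39 ± 0.19, adjusted p = 0.000471). HSPB8, a small heat shock protein, rose by 1.81 ± 0.24 (adjusted p = 0.000392). FOS, named after its values were seen, went from 1.97, 3.69 and 3.54 CPM to 22.8, 50.3 and 32.3 CPM. In CCN2 and FOS every postpartum value lay above every prepartum value.

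The extracellular matrix list split, with 9 upregulated and 6 downregulated of 35 (11 and 10 without the postpartum library of sow 1, 6 and 7 without that of sow 3, and 4 and 11 with total counts in place of TMM). Its upregulated genes were CCN2, LOXL1, a lysyl oxidase that crosslinks elastin (2.09 ± 0.22, adjusted p = 0.000103), and THBS2, a thrombospondin (1.88 ± 0.34, adjusted p = 0.00234), with 6 others. The time points of THBS2 overlapped, and it had fallen by 1.82 from 14 d to 2 d prepartum. LOXL1 stood at 7.70, 8.41 and 9.15 CPM before birth and at 28.4, 47.8 and 32.0 CPM after it. COL9A1, a chain of type IX collagen, fell in every sow, from 6.25, 38.6 and 6.79 CPM to 0.170, 4.96 and 0.658 CPM (-3.17 ± 0.30, adjusted p = 6.01e-05), and the protease genes ADAMTS14 (-1.33 ± 0.26, adjusted p = 0.00357) and MMP16 (-1.04 ± 0.22, adjusted p = 0.00534) fell less. The fibrillar collagen gene COL3A1 was not called (-0.44, adjusted p = 0.15). The median of the list was 0.16, and it changed sign to -0.09 without the postpartum library of sow 3. Outside the list, LTBP2, a latent TGF-beta binding protein of elastic fibres, rose from 8.10, 10.7 and 12.03 CPM to 70.1, 218 and 451 CPM (4.40 ± 0.39, adjusted p = 4.04e-05).

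Cell cycle and DNA replication genes had the highest share of downregulated members of all lists, with 35 of 42 downregulated and 0 upregulated, against 10.9% of all genes, and a median log2 fold change of -0.998. Without the postpartum library of sow 1, 37 were downregulated and 0 upregulated. The downregulated genes were 28 without the postpartum library of sow 2 and 27 without that of sow 3. With the 6 libraries alone in the fit they were 3, at a median of -1.02. From 14 d to 2 d prepartum 0 of the 42 had been called in either direction (edgeR) and the median change was -0.12. Only 5 of the 42 entered the class described further on, which asks among other things for a called difference between the steps. Their summed level went from 1208, 1299 and 1221 CPM to 851, 734 and 743 CPM. ESPL1, separase, which frees sister chromatids, fell from 10.3, 10.1 and 9.60 CPM to 4.26, 1.29 and 2.49 CPM (-1.99 ± 0.29, adjusted p = 0.000715). MCM3, a subunit of the replicative helicase, fell from 48.0, 37.6 and 47.2 CPM to 18.2, 13.6 and 12.3 CPM (-1.61 ± 0.23, adjusted p = 0.000553), and KIF20B, a kinesin of cytokinesis, by 1.42 on the log2 scale (SE 0.20, adjusted p = 0.000654). Outside the list, ASF1B, a histone chaperone of replication (chromosome 2, 65338638 to 65348235), fell from 11.5, 11.7 and 11.2 CPM to 3.06, 0.595 and 1.68 CPM (-2.81 ± 0.32, adjusted p = 0.000148), and TTK, a kinase of the spindle checkpoint, from 4.63, 6.36 and 5.46 CPM to 1.53, 0.198 and 1.02 CPM (-2.68 ± 0.46, adjusted p = 0.00168). Sow 2 was the lowest of the sows after birth in ASF1B, TTK and ESPL1, and sow 1 the highest.

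Genes of the ribosome and of translation fell by a smaller and more even amount, 15 of 22 downregulated and 0 upregulated, with a median of -0.55, or 19 and 0 without the postpartum library of sow 1. Without the prepartum or the postpartum library of sow 3, 13 were downregulated. With the 6 libraries alone in the fit 0 were called, at a median of -0.55. Their summed level went from 21660, 20780 and 23260 CPM to 12650, 15360 and 12800 CPM. RPL27, a protein of the large subunit, was nearly the same in all sows, at 618, 627 and 634 CPM before birth and 377, 376 and 333 CPM after it (-0.79 ± 0.09, adjusted p = 0.000152). RPS26 of the small subunit fell by 0.85 (SE 0.12, adjusted p = 0.000682), and NACA, the nascent chain binding factor, by 0.96 (SE 0.14, adjusted p = 0.000773). The cap-binding factor EIF4E was not called (-0.07, adjusted p = 0.8). Ribosomal protein genes have many processed copies in mammalian genomes, and the part of reads lost to them was not tested.

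Of 22 nuclear genes of the mitochondrial respiratory chain 6 were downregulated and 0 upregulated, with a median of -0.23. Sow 1 differed here, since its median change was 0.10 against -0.52 and -0.31, and without its postpartum library 14 were downregulated, against 3 without that of sow 2 and 13 with total counts. HIGD2A, a factor for assembly of respiratory supercomplexes, fell in all sows, from 81.8, 63.7 and 80.9 CPM to 35.9, 39.6 and 32.0 CPM (-1.09 ± 0.16, adjusted p = 0.000819).

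**Figure D3:**
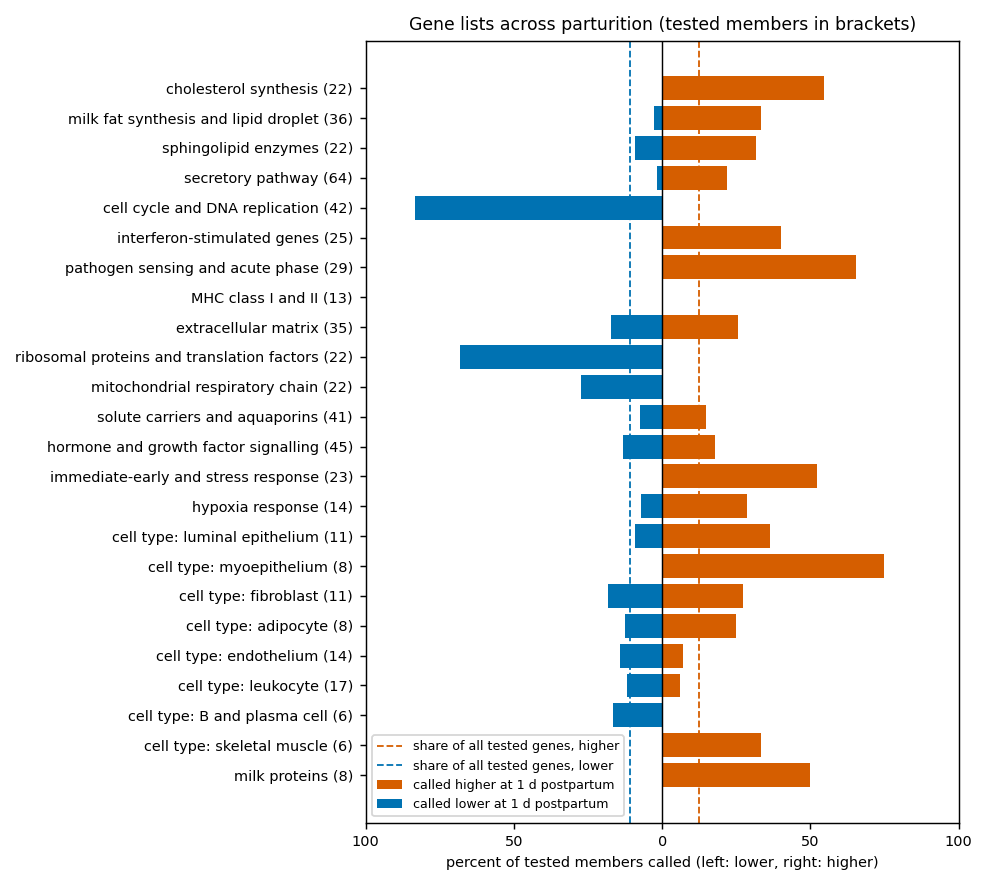
Percent of the tested members of each gene list called lower (to the left) and higher (to the right) at 1 d postpartum, with dashed lines at the shares among all tested genes (10.9% lower and 12.5% higher). The lists of myoepithelium (6 of 8 higher), acute phase (19 of 29 higher), cell cycle (35 of 42 lower) and ribosome (15 of 22 lower) reached farthest from those lines.

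Genes of hormone and growth factor signalling moved both ways, 8 upregulated and 6 downregulated of 45. The counts were 8 and 9 without the postpartum library of sow 1, and 4 and 12 with total counts in place of TMM. PRLR, the prolactin receptor, fell from 9.08, 14.8 and 29.0 CPM to 6.64, 6.45 and 7.82 CPM (-1.27 ± 0.25, adjusted p = 0.00397), which brought the sows close together. STAT5A, the transcription factor that carries the prolactin signal to milk protein genes, fell from 311, 265 and 283 CPM to 195, 189 and 147 CPM (-0.70 ± 0.12, adjusted p = 0.00141), and the AP-2 factor gene TFAP2C fell by 1.19 (SE 0.20, adjusted p = 0.00168) while its relative TFAP2A rose by 0.85 ± 0.15 (adjusted p = 0.00192). STC2, the secreted glycoprotein stanniocalcin 2, rose from 19.96, 25.8 and 22.6 CPM to 44.6, 99.7 and 157 CPM (2.14 ± 0.37, adjusted p = 0.00184), and NFATC2, a calcium-regulated transcription factor, by 1.54 ± 0.23 (adjusted p = 0.000880). TNFSF11, the cytokine RANKL of alveolar growth, stood at 3.59, 2.24 and 6.2 CPM and then at 1.70, 2.38 and 1.83 CPM and was not called (-0.97 ± 0.36, adjusted p = 0.0739), but it was called without the postpartum library of sow 2 (-1.47, adjusted p = 0.0152). ESR1, the oestrogen receptor, and PGR, the progesterone receptor, were not called (-0.49 and -0.60).

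Among 41 solute carriers and aquaporins 6 were upregulated and 3 downregulated, a share near that of all genes. SLC7A4, of the family of cationic amino acid transporters, rose most, from 2.14, 2.90 and 1.40 CPM to 10.7, 65.7 and 102 CPM (4.72 ± 0.67, adjusted p = 0.000605), and by 3.86 without the postpartum library of sow 3. The zinc transporter genes SLC30A7 (1.03 ± 0.15, adjusted p = 0.000794) and SLC39A14 (0.62 ± 0.11, adjusted p = 0.00173) rose in all sows. SLC44A4, of the choline transporter-like family, fell from 17.5, 11.2 and 30.6 CPM to 8.51, 6.15 and 7.24 CPM (-1.39 ± 0.22, adjusted p = 0.00117). Without the postpartum library of sow 1 the counts of this list were 13 and 8, without the prepartum library of sow 3 they were 4 and 1, and with total counts they turned to 3 and 8.

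Sphingolipid enzymes were upregulated in 7 and downregulated in 2 of 22 genes, without the postpartum library of sow 1 in 9 and 2, and with total counts in 2 and 2. With the 6 libraries alone in the fit 0 were called. The downregulated genes were SGMS1, a sphingomyelin synthase, from 250, 348 and 250 CPM to 154, 153 and 137 CPM (-0.92 ± 0.13, adjusted p = 0.000489), and ORMDL1, an inhibitor of serine palmitoyltransferase, from 356, 422 and 333 CPM to 220, 212 and 157 CPM (-0.92 ± 0.11, adjusted p = 0.000205). The lysosomal genes HEXA (0.54 ± 0.10, adjusted p = 0.00194) and SMPD1 (0.57 ± 0.11, adjusted p = 0.00333) and the glucosylceramidase gene GBA2 (0.51 ± 0.09, adjusted p = 0.00188) rose. In each of the named genes of this list the time points did not overlap.

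Interferon-stimulated genes were upregulated in 10 and downregulated in 0 of 25 (median 0.56), and in 16 and 0 without the postpartum library of sow 1, in which they moved least. Other fits went the other way, with 2 higher without the prepartum library of sow 3, 5 without that of sow 2, 4 without the postpartum library of sow 3 and 2 with total counts in place of TMM, 0 being lower in each. With the 6 libraries alone in the fit 0 were called, at a median of 0.57. ETV7, a transcription factor of the ETS family, went from 1.79, 0.787 and 1.25 CPM to 2.38, 4.76 and 4.97 CPM (1.78 ± 0.36, adjusted p = 0.00410), and the antiviral gene MX2 from 10.7, 9.26 and 8.05 CPM to 15.7, 17.3 and 29.5 CPM (1.17 ± 0.27, adjusted p = 0.00874). The call of MX2 was lost without the prepartum library of sow 3 (1.03, adjusted p = 0.0545). Both genes had stood higher at 6 d prepartum, with means of 3.37 CPM for ETV7 and 19.8 CPM for MX2. Their means were 1.28 and 9.34 CPM at 2 d prepartum and 4.04 and 20.8 CPM after birth, near those of 6 d prepartum. The fall from 6 d to 2 d prepartum was not called by edgeR (adjusted p = 0.162 and 0.161).

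Of 13 tested genes of the major histocompatibility complex classes I and II and their antigen pathway, 0 were called by edgeR, with an adjusted p of 0.0524 for SLA-1 (0.58 ± 0.20) and 0.0578 for SLA-DQA (-0.25 ± 0.09). Without the postpartum library of sow 1, 4 were higher, SLA-1 among them (0.78, adjusted p = 0.00433), and 1 lower. SLA genes have near-identical copies, and their counts are uncertain. The hypoxia list had 4 upregulated genes, STC2, P4HA1 (0.60 ± 0.11), EPAS1 (0.41 ± 0.12) and ADM (0.73), and 1 downregulated gene, ANKRD37 (-0.85 ± 0.25), of 14. Without the postpartum library of sow 1 the counts were 3 and 3, and with total counts 1 and 3, where the median of the list turned from 0.16 to -0.027 and -0.14. EPAS1 lost its call without the postpartum library of sow 3 (0.33) or the prepartum library of sow 1 (0.35) or 3 (0.38), and ANKRD37 in 4 of the 6 fits that lacked a library.

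The libraries carried the markers of mammary epithelium throughout, with EPCAM at 688 to 1169 CPM before birth and 890 to 1299 CPM after it. Of 11 luminal markers 4 rose and 1 fell. The keratin genes KRT8 (1.09 ± 0.22, adjusted p = 0.00384) and KRT18 (1.39 ± 0.21, adjusted p = 0.000819) and the epithelial transcription factor ELF3 (2.85 ± 0.46, adjusted p = 0.00123) rose, and the luminal factor FOXA1 fell (-1.51 ± 0.39, adjusted p = 0.0155), but its call was lost without the prepartum library of sow 3 (-0.998) and without the postpartum one (-0.986). The summed luminal level went from between 1296 and 1771 CPM to between 1969 and 2202 CPM, and no library of 1 d postpartum was under those of 2 d prepartum.

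Beside the acute phase genes, 1 of 17 leukocyte markers was called higher, S100A9, and 2 lower, NCF4 and LCP1. LCP1 lost its call in 3 of the 6 fits that lacked a library and NCF4 in 1, and S100A9 was tested in 3 of them. Their summed level was 447 to 482 CPM before birth and 382 to 447 CPM after it, and PTPRC, the leukocyte common antigen, stood at 27.5 to 31.5 CPM and 26.3 to 30.1 CPM. Endothelial markers were called higher in 1, ACKR1 (1.43 ± 0.22, adjusted p = 0.00102), and lower in 2, PLXND1 and PEAR1, of 14, with a summed level of 817 to 836 CPM and then 653 to 795 CPM. Fibroblast markers were called higher in 3 and lower in 2 of 11, with a summed level of 2825 to 3174 CPM before and 1671 to 2821 CPM after birth. Without the prepartum library of sow 3, 0 were higher, and without the postpartum one 1.

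Adipocyte markers were called higher in 2 of 8, CIDEA and PNPLA2, and lower in 1, MEST, while PLIN1, a defining droplet protein of fat cells, stood at a mean of 0.312 CPM before and 0.514 CPM after birth. PNPLA2 lost its call in 5 of the 6 fits that lacked a library (adjusted p = 0.0545 to 0.115), and MEST in 3 (0.0506 to 0.126). Their summed level went from between 59.1 and 66.4 CPM to between 106 and 181 CPM, and CIDEA alone reached 122 CPM in sow 1. Of 6 tested markers of B and plasma cells, CD72 was lower (-0.91 ± 0.24, adjusted p = 0.0186) and 0 were higher, with summed levels of 29.8 to 42.7 CPM and 31.1 to 84.3 CPM. The call of CD72 was lost in 3 of the 6 fits. The part of cell makeup in any result above was not tested.

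A class of genes changed only around birth was formed by rule. A gene entered it when it was called across birth, when its step across birth differed from its change between 14 d and 2 d prepartum in the same direction (adjusted p of the difference at most 0.05), and when the 4 prepartum time points did not differ at an unadjusted p of 0.05. The libraries of 2 d prepartum enter both steps, and a missed prepartum test does not show that nothing changed before birth. The change from 14 d to 2 d prepartum also spans the start of the diets. The difference of the steps was called in 865 genes (6.41% of those tested), and 446 genes (3.30%) met the whole rule, 225 higher (1.67%) and 221 lower (1.64%). Their median log2 fold change across birth was 1.43 for the former and -0.87 for the latter, beside -0.27 and 0.15 from 14 d to 2 d prepartum. The size of the class rested on single libraries, with 1403 genes without the postpartum library of sow 1, 235 without that of sow 3, and 51, 85 and 30 without the prepartum library of sow 1, 2 and 3. In the class 10 genes had passed the filter only through the postpartum libraries. Of the 446 genes, 7 were in the class in the full fit and in each of those 6 fits.

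Members of the lists in the class are counted here beside the 3.30% of all genes, and the lists were not tested against each other. Ribosomal and translation genes gave 10 of 22, myoepithelial markers 4 of 8, acute phase genes 5 of 29, cell cycle genes 5 of 42, cholesterol genes 3 of 22 and immediate-early genes 3 of 23, while secretory pathway, sphingolipid, solute carrier and interferon-stimulated genes gave 0, which in lists of this size is near the background. The ribosomal members were RPL27, RPS26, EEF1B2 and 7 others, and the myoepithelial members were ACTG2, CNN1, TAGLN and ACTA2, the alpha actin of smooth muscle. In the 6 fits that lacked a library ACTG2 was in the class in 1, CNN1, TAGLN and RPS26 in 3 each, and RPL27 in 5.

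CXCL2 and ASF1B, among the 7 genes that kept their place in every fit, show the pattern from either side. The step of CXCL2 across birth exceeded its earlier change by 4.30 ± 0.42 on the log2 scale (adjusted p = 0.00189), and its prepartum means lay between 3.92 and 5.32 CPM from 14 d to 6 d. ASF1B had prepartum means of 10.99, 14.4 and 11.6 CPM on those days, 11.5 CPM at 2 d prepartum and 1.78 CPM after birth (difference of steps -2.87 ± 0.46, adjusted p = 0.00774). CYSTM1 (1.17) and PDLIM3 (1.91), with 3 genes for which no name was found, were the others, named after their values were seen.

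Other members with large increases were LTBP2, for which the difference of steps was called in 6 of the 6 fits that lacked a library, CEBPD, CCN2, NFIL3 and ATF3 (4 of 6 each), CD14 (3 of 6), MT1X (2 of 6), and C3 and SERPINA11 (1 of 6). S100A9, which counts among the acute phase members of the class, and PLIN5 were tested in 3 of these fits, and the difference was called in 0. Both had passed the filter on low counts only through the postpartum libraries. The largest decreases in the class were in genes at low levels. PON3, a paraoxonase, fell from 3.36, 0.908 and 2.44 CPM to 0.00, 0.00 and 0.146 CPM, or from 106 counts to 2, a ratio of 33.2 with a 95% exact counting interval of 8.96 to 278. HPD, an enzyme of tyrosine breakdown, fell from 1.74, 4.48 and 2.73 CPM to 0.511, 0.00 and 0.146 CPM (-4.18 ± 0.63, adjusted p = 0.000857), and its change was -5.41 without the postpartum library of sow 1 and -3.35 without that of sow 2. The unnamed ENSSSCG00000003303 fell from 91 counts to 0, which is at least 18.99-fold lower if 3 counts over the group are taken as the floor. Intervals and floors cover counting error only.

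Further members fell, CHODL and GDF10 at higher levels, and KIRREL2 and PRR11 at low means of 4.78 and 3.18 CPM before birth. CHODL, the membrane lectin chondrolectin, went from 104, 76.0 and 118 CPM to 18.2, 2.88 and 16.7 CPM (-3.12 ± 0.41, adjusted p = 0.000423), GDF10, a growth factor of the TGF-beta family, from 23.8, 15.4 and 31.4 CPM to 2.21, 1.69 and 4.09 CPM (-3.07 ± 0.31, adjusted p = 8.29e-05), and KIRREL2, an adhesion protein of the immunoglobulin family, from 3.76, 4.30 and 6.27 CPM to 1.19, 0.0992 and 0.512 CPM (-3.19 ± 0.46, adjusted p = 0.000644). PRR11, a gene linked to mitosis, fell from 2.20, 4.24 and 3.10 CPM to 0.511, 0.00 and 0.731 CPM (-2.92 ± 0.53, adjusted p = 0.00232). In all of these every sow fell and the time points did not overlap. Their place in the class was less stable, since CHODL and KIRREL2 were in it in 0 of the 6 fits that lacked a library, HPD, PON3 and ENSSSCG00000003303 in 1, PRR11 in 3 and GDF10 in 4.

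**Figure D4:**
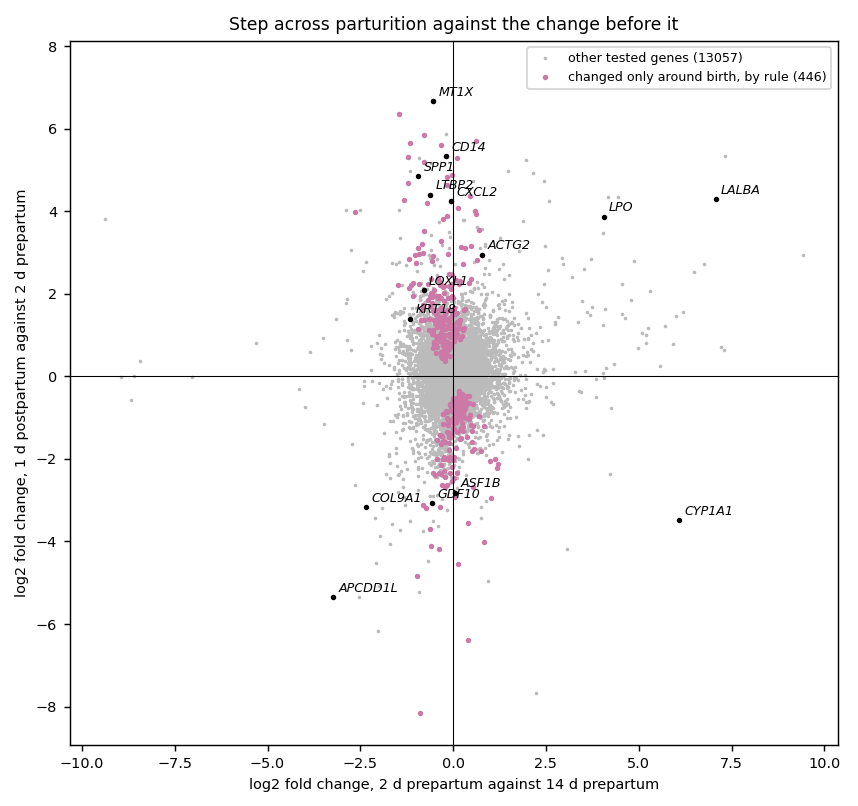
Log2 fold change of every tested gene from 2 d prepartum to 1 d postpartum (vertical) against that from 14 d to 2 d prepartum (horizontal), with the 446 genes of the class in pink and 15 named genes marked. The class lies near 0 on the horizontal axis by its rule, LALBA and LPO rose in both steps (7.07 then 4.29, and 4.05 then 3.87), APCDD1L and COL9A1 fell in both, and CYP1A1 rose by 6.07 before it fell by 3.48.

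Other large changes across birth continued or turned an earlier change. From 14 d to 2 d prepartum 1271 genes were called, of which 194 rose in both steps and 128 fell in both. A turn with a called difference of steps was found in 148 genes, 78 that fell and then rose and 70 that rose and then fell.

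CYP1A1, a cytochrome P450 induced through the aryl hydrocarbon receptor (chromosome 7, 63491454 to 63497651), had means of 0.575, 0.496 and 0.544 CPM at 14 d, 10 d and 6 d prepartum. It then stood at 12.6, 32.1 and 90.3 CPM at 2 d prepartum and at 3.92, 5.75 and 1.53 CPM at 1 d postpartum. The peak was present in each sow, and both the fall across birth (-3.48 ± 0.68, adjusted p = 0.00337) and the difference of steps (-9.55 ± 1.11, adjusted p = 0.00243) were called. The fall was -2.31 without the prepartum library of sow 3 and -2.59 without the postpartum one, and -4.17 without the prepartum library of sow 1.

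KRT18 and LOXL1 turned the other way, since they had fallen by 1.17 (adjusted p = 0.00644) and 0.80 (adjusted p = 0.0390) on the log2 scale from 14 d to 2 d prepartum and then rose, and the difference of steps was 2.56 ± 0.38 (adjusted p = 0.00565) and 2.89 ± 0.39 (adjusted p = 0.00437). THBS2, KRT8 and SPP1 turned likewise, after falls of 1.82, 0.96 and 0.95 (adjusted p = 0.00766, 0.0184 and 0.0485). THBS2 and KRT8 had means of 38.9 and 374 CPM at 14 d prepartum and 11.5 and 194 CPM at 2 d prepartum. After birth these were 44.1 and 434 CPM, near those of 14 d, and in both genes the time points across birth overlapped. AQP3, a water and glycerol channel, and SGMS1 rose before birth (0.85 and 0.51) and fell across it (-0.67 and -0.92). AQP3 kept its level in sow 1, at 126 and 122 CPM, and lost its call in 5 of the 6 fits that lacked a library.

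Large decreases across birth were also found in genes that had fallen before it. APCDD1L, a relative of an inhibitor of Wnt signalling, fell from a mean of 33.1 CPM at 14 d prepartum to 2.43, 0.847 and 10.4 CPM at 2 d prepartum and to 0.170, 0.0992 and 0.0731 CPM at 1 d postpartum. Its 197 counts before birth and 3 after it give a ratio of 41.1 with a 95% exact counting interval of 13.9 to 201, and the log2 fold change of -5.35 was -4.01 without the postpartum library of sow 3. HEPACAM, an adhesion molecule, fell by 4.51 (SE 0.61, adjusted p = 0.000484) after a fall of 2.08, and SLC6A3, the dopamine transporter, by 3.19 (SE 0.47, adjusted p = 0.000709) after a fall of 1.91. No called fall before birth preceded those of the next genes (log2 fold change -0.81 with adjusted p = 0.0558 for TDRD1 and -0.68 with adjusted p = 0.413 for ZBED2, from 14 d to 2 d prepartum). TDRD1, a Tudor domain protein of the piRNA pathway in germ cells, fell from 27.9, 20.7 and 42.4 CPM to 1.36, 3.47 and 1.53 CPM (-3.74 ± 0.33, adjusted p = 4.04e-05), and the zinc finger gene ZBED2 from 18.1, 7.93 and 32.5 CPM to 2.72, 0.0992 and 0.585 CPM (-4.46 ± 0.76, adjusted p = 0.00162), with no overlap between the time points in either. The change of TDRD1 was -4.57 without the postpartum library of sow 2, and that of ZBED2 -5.89 without that of sow 1 and -3.81 without that of sow 3.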

How the data were processed

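Messenger RNA of mammary biopsies was sequenced as stranded single reads. Per the file headers and the methods of the study, reads were trimmed and mapped by STAR to the build Sscrofa10.2, and the authors deposited raw featureCounts counts for each gene, without normalization. The headers name the Ensembl annotation, whereas the methods name RefSeq. Each table lists 25322 genes, of which 12041 received a name, 11762 from the reference table and 279 from the gene list of the study alone. The plan had set names from the gene list alone, and the reference table was added when it became available. A further 27 IDs with conflicting names and 14 symbols shared by IDs were left unnamed.

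A single edgeR model (version 4.0.16 under R 4.3.3, TMM factors, glmQLFit and glmQLFTest) held all 15 libraries with terms for time and sow. A gene was tested if 3 or more libraries had it at 1 CPM or above, and p-values were adjusted by Benjamini-Hochberg over all of them. The sow was joined by the exact total count from the sequencing summary of the study. Libraries of the same sow deviated together (correlations 0.27, 0.19 and 0.36, different sows at most 0.03). The standard error is the absolute log2 fold change divided by the square root of F. Alternatives used limma 3.58.1 and DESeq2 1.42.0. Scripts were tested on simulated data. No pair of libraries was identical.

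Named were the 10 largest increases and decreases without overlap, the 8 largest of each direction in the class, the 3 list members with the smallest p per direction, up to 2 members not called where fewer than 2 were, 2 unnamed IDs per direction, and CD14, LY96, SQLE, TNFSF11 and PLIN5. A further gene of this rule is not reported here. Members and lists were chosen with earlier results of these data known.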

Additional observations from a re-analysis of the deposited data

Results flagged for a closer look

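The step from 2 d prepartum to 1 d postpartum and the change from 14 d to 2 d prepartum are the same kind of contrast over different days. They differed in 865 genes by a test of the difference itself in the edgeR model (adjusted p at most 0.05), 415 with the higher step across birth and 450 with the lower, and this is what brought the count here. Both steps share the libraries of 2 d prepartum, so that a library that is off at that time point enters both with opposite sign. The count was 144, 182 and 97 without the library of sow 1, 2 or 3 at 2 d prepartum, and 3217, 719 and 541 without that of sow 1, 2 or 3 at 1 d postpartum, and 65 genes were called in the full fit and in each of these 6 fits.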

How the results depend on the processing

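Across birth 3152 genes were called, in the difference of the steps 865, and 446 were in the class of genes changed only around birth. These counts were 2441, 399 and 251 with no replicate block for the sow, 3532, 1495 and 776 with DESeq2, and 3046, 273 and 95 with total counts without TMM. The 6 libraries alone, with the replicate block by sow, gave 321 genes across birth and 25 list members, against 184 in the full fit, and there the difference could not be computed. Leaving out each library in turn gave 1833 to 4645 genes across birth, 97 to 3217 in the difference, 30 to 1403 in the class and 121 to 229 list members. The difference in the 10-gene share of counts ran from 1.51 to 13.2 percentage points when a library was left out. RLE factors, limma-voom with sows as random effects, other filters on low counts, thinning, and removal of the 10 highest genes moved each of the first 3 counts by less than 1.5 times. The members of the class changed as well. Of its 446 genes, 315 were kept with limma-voom, 315 with thinning and 388 to 442 with the others. The 1403 genes of the class without the postpartum library of sow 1 held 319 of them. A reversed direction was found for SLAMF7 with total counts (-0.088) and for DERL3 without the library of sow 1 at 1 d postpartum (-0.050), neither of which was called in the full fit. DERL3 ranged from -0.050 to 1.145 when a library was left out. The cause of these differences was not tested. With 3 libraries per time point and totals down to 10782343, genes under 1 CPM rest on few counts.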
